A study of Oryctolagus cuniculus with 16 samples.

Results

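P2RX1 and the purinergic genes around it were followed through the vaginal wall of the rabbit (New Zealand White, female, 17 to 19 weeks old). The set holds the ATP-gated channels P2RX1, P2RX4, P2RX5 and P2RX7, the nucleotide receptors P2RY1, P2RY2, P2RY6 and P2RY14, and the nucleotide-degrading enzymes ENTPD1 and NT5E. P2RX1 was chosen by its measured level, which was low beside acellular grafts in these same libraries, and the others as members of its receptor family and as enzymes that remove ATP. By symbol, 9 of the 10 genes had a row among the 13001 named genes of the count table, and all 9 were among the 10942 genes tested. P2RY2 was not analysed here.

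Poly(A) RNA of 16 libraries was sequenced. The acellular group held 3 rabbits (animals 6, 8 and 10) in which an acellular graft had been placed in the vagina. The PLATE group held 4 (animals 1, 5, 9 and 13) with a graft labelled PLATE, which the series title describes as autologous micrografting. Both were sampled 10 mm away from the graft zone. The sham group held 3 rabbits with sham surgery (animals 11, 12 and 14), and the control group 6 native vaginas (animals 2, 9, 16, 24, 25 and 29). No sampling distance is given for sham and control libraries, so in comparisons with them sampling site and graft cannot be told apart, and the time since surgery is not given in the sources used here. The animal number 9 stands in both the control and the PLATE labels, which leave it unsaid whether a single rabbit is meant. Named genes received between 15348880 and 23236339 counts per library. Of the smooth muscle markers of the vaginal wall, 14 of 18 were measured, and their summed level ran from 12864 to 203160 CPM (CPM, named-gene counts scaled to a common library size that allows for composition). Epithelial markers, 8 of 12 measured, summed to 16.1 CPM in control 2 and to between 239 and 1330 CPM in the other 15 libraries, so control 2 held almost none of the epithelial transcripts.

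ATP released from nerves, damaged cells or epithelium acts on P2X receptors, which are cation channels opened by ATP, and on P2Y receptors, which couple to G proteins and bind ATP, ADP, UTP, UDP or UDP-sugars. In smooth muscle of the genitourinary tract and of arteries, P2RX1 is the channel through which ATP co-released with noradrenaline evokes fast contraction, and it is also known from platelets. ENTPD1 (CD39) strips phosphates from ATP and ADP at the cell surface, and NT5E (CD73) turns the resulting AMP into adenosine, which acts on receptors of its own.

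P2RX1 was counted 4, 6 and 26 times in acellular 6, 8 and 10, which corresponded to 0.182, 0.403 and 1.28 CPM. In PLATE 1, 5, 9 and 13 its level was 14.9, 12.9, 3.77 and 8.95 CPM. In sham 11, 12 and 14 it was 9.17, 3.78 and 4.28 CPM. Among the 6 control libraries the lowest value was 3.00 CPM in control 29, the median 21.9 and the highest 35.5 CPM in control 25. All 3 acellular libraries lay below each of the other 13, whereas the PLATE, sham and control libraries overlapped one another. The acellular levels stood above the 0.137, 0.202 and 0.148 CPM to which 3 counts correspond in acellular 6, 8 and 10, in the first of them by a single count, so the level there is known only coarsely. Since the tissue was sequenced in bulk, fewer cells of a type and less RNA per cell cannot be told apart.

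**Figure D1:**
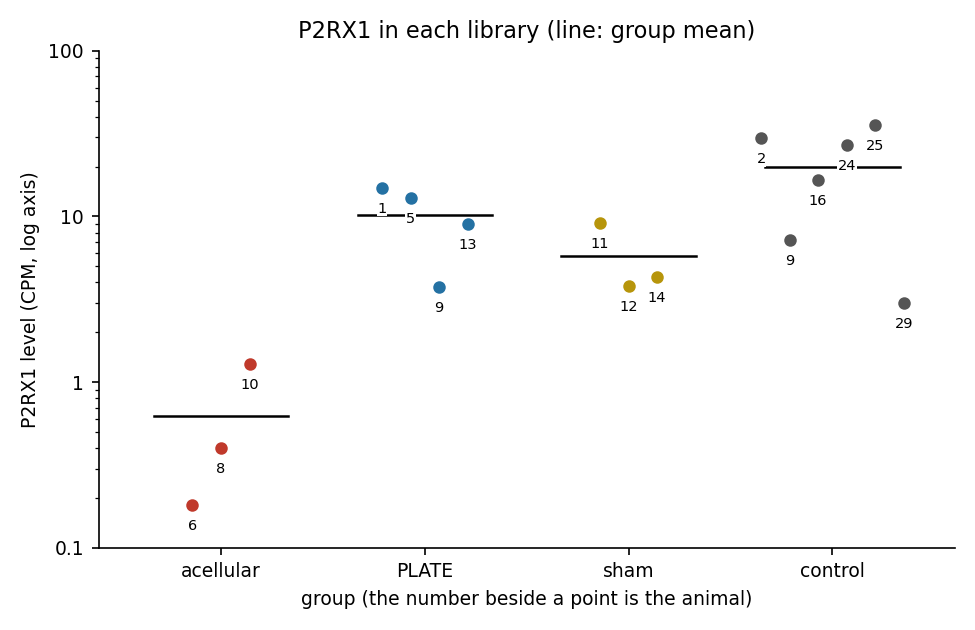
P2RX1 level (CPM, log axis) in each of the 16 libraries by group, each point labelled with its animal number, with a line at the group mean. The 3 acellular libraries sit at 0.182 to 1.28 CPM, below the other 13, which lie between 3.00 and 35.5 CPM.

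The group means of P2RX1 were 0.623 ± 0.582 CPM in acellular (SD, n = 3), 10.1 ± 4.92 CPM in PLATE (n = 4), 5.75 ± 2.98 CPM in sham (n = 3) and 19.9 ± 13.0 CPM in control libraries (n = 6). In ascending order the means ran acellular, sham, PLATE, control. PLATE and sham, which are neighbours in that order, differed by less than their spread, and so did PLATE and control. The gene was picked for its low acellular level, so its differences from that group are given as a description with no test. They came to a log2 fold change of -4.97 ± 0.91 (± SE of the fit here and below) for acellular against control, which is 31.4-fold lower. Acellular against sham gave -3.18 ± 0.89, and PLATE against acellular 4.00 ± 0.89.

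The spread inside the acellular group was itself wide, and acellular 10 carried most of the counts. Without acellular 10 the difference of P2RX1 became -6.10 against control and -4.32 against sham, and PLATE against acellular became 5.13. No acellular contrast of P2RX1 changed direction when any of the 16 libraries was left out. With every acellular library below every other library, this could not have come out otherwise, so it is no support for the difference.

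The comparisons of P2RX1 that do not involve acellular libraries were tested. PLATE against control gave a log2 fold change of -0.97 ± 0.63 (edgeR quasi-likelihood test, adjusted p = 0.998), and PLATE against sham 0.82 ± 0.74 (edgeR, adjusted p = 0.767). Sham against control gave -1.79 ± 0.73, with an unadjusted p of 0.0277 and an edgeR adjusted p of 0.963. The sham values of 3.78 to 9.17 CPM all fell within the control range of 3.00 to 35.5 CPM. None of these 3 comparisons passed the threshold of 0.05. With the mean level of the smooth muscle markers as a covariate, P2RX1 was at -0.34 ± 0.55 in PLATE against control, 1.42 ± 0.69 in PLATE against sham (edgeR, adjusted p = 0.846) and -1.76 ± 0.63 in sham against control (edgeR, adjusted p = 0.948). The first 2 moved by more than 1.5 times and none was called.

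P2RX1 was next set beside the contractile genes of the same libraries. The mean log2 level of the 14 smooth muscle markers was 9.60 ± 0.16 in acellular, 10.3 ± 0.41 in PLATE, 10.9 ± 0.25 in sham and 10.7 ± 1.23 in control libraries (SD). The log2 level of P2RX1 minus that mean was -11.3, -10.8 and -9.09 in acellular 6, 8 and 10. The same difference ran from -8.47 to -5.85 in PLATE, from -8.81 to -8.02 in sham and from -8.14 to -5.92 in control libraries. All 3 acellular differences lay below those of the other 13 libraries, and that of acellular 10 was close to the lowest of the others, sham 12. Control 9 held the least smooth muscle marker RNA of all 16, a mean of 8.80, and had 7.24 CPM of P2RX1. These differences rest on the acellular values by which P2RX1 was chosen, and the part of muscle content in them was not tested.

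**Figure D2:**
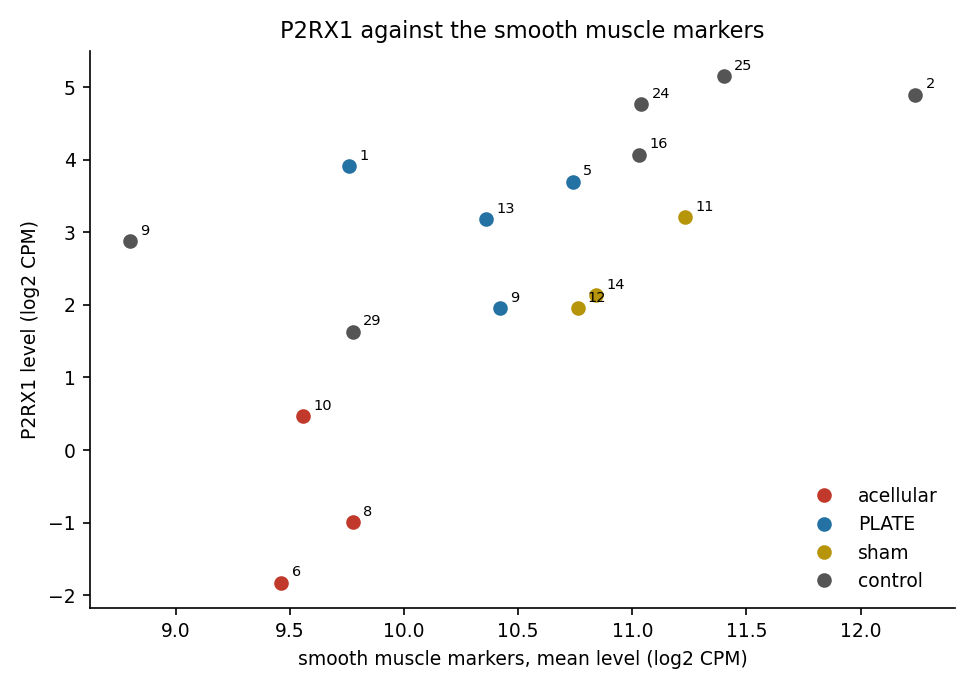
P2RX1 level against the mean level of 14 smooth muscle markers (both log2 CPM), 1 point per library with its animal number, coloured by group. The acellular points lie lowest on the P2RX1 axis, at muscle marker levels of 9.46 to 9.78, where control 29 (9.78) and PLATE 1 (9.76) also lie with more P2RX1.

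All 14 muscle markers were lower in acellular against control, with log2 fold changes from -3.48 for ACTG2, the visceral smooth muscle actin, to -0.44 for LMOD1, an actin nucleator of smooth muscle, and a median of -1.23. The difference of P2RX1 lay outside this range, but P2RX1 was picked for its low acellular level and the markers were not. None of the 14 passed the edgeR test. All 14 were also lower in acellular against sham (median -1.22), in PLATE against control (-0.75) and in PLATE against sham (-0.57), with 0 called. With the muscle marker mean as a covariate, the P2RX1 difference was -3.87 ± 0.78 for acellular against control, -2.10 ± 0.84 for acellular against sham and 3.52 ± 0.77 for PLATE against acellular. These values rest on the acellular levels by which P2RX1 was chosen and are no test. Across the 16 libraries the markers differed in how far they followed P2RX1. The highest Pearson correlation was that of ACTA2, the vascular smooth muscle actin, at 0.82, the lowest that of LMOD1 at 0.19, and 6 of the 14 were above 0.7. That takes in the acellular libraries by which P2RX1 was chosen. Over the 13 libraries without acellular grafts ACTA2 was at 0.70 and LMOD1 at 0.02.

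Over the 13 libraries without acellular grafts, its correlation with the muscle marker mean was r = 0.52 (permutation p = 0.0664, adjusted over the 11 marker lists 0.146; Spearman rho = 0.62, permutation p = 0.027, adjusted 0.099). Without control 9 and control 2, farthest out on the muscle axis, r was 0.48. The platelet list gave r = 0.78 (permutation p = 0.0015, adjusted 0.0165; rho = 0.85, permutation p = 0.00056, adjusted 0.00616), and r = 0.94 without PLATE 1 and sham 14. That list was thinly measured. Of its 13 genes 7 had a row and 4 were tested, and the defining platelet glycoproteins GP1BA, GP5 and GP9 had between 0 and 4 counts in every library. The summed level of the list was 20.97 to 64.8 CPM in acellular, 34.4 to 185 in PLATE, 15.7 to 35.1 in sham and 16.2 to 74.4 CPM in control libraries, and its part in the P2RX1 levels was not tested. The skeletal muscle list, 7 of 12 measured and 6 tested, gave r = 0.65 (permutation p = 0.0133, adjusted 0.0731; rho = 0.76, permutation p = 0.00368, adjusted 0.0202), and r = 0.61 without control 25 and control 9. Its summed level was 7.50 to 47.8 CPM in acellular, 8.79 to 54.6 in PLATE, 29.5 to 59.9 in sham and 5.92 to 256 CPM in control libraries, and its part in the P2RX1 levels was not tested either. The skeletal muscle list was thinly measured too. Per library MYH1 had 0 to 2 counts, MYH7 2 to 65, MB 2 to 68, ACTN3 4 to 31 and ACTA1 2 to 187. CKM had 34 to 2864 and TNNT3 0 to 1283 counts.

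The genes whose log2 levels followed P2RX1 most closely over all 16 libraries were TINAGL1 (Pearson correlation 0.94), CDK16 (0.94), FAM114A1 (0.93), TEAD4 (0.90), TRMT2B (0.88), ITGA7 (0.87), PPP5C (0.87), PCSK7 (0.87), IL17B (0.86) and NUBP1 (0.86). Among them ITGA7 encodes a laminin-binding integrin subunit of muscle. Over the 13 libraries without acellular grafts the 10 closest began with CDK16 (0.93), TINAGL1 (0.92) and ADSL (0.88), the last of which encodes adenylosuccinate lyase of purine synthesis. Only 4 genes stood in both lists of 10, namely CDK16, NUBP1, PCSK7 and TINAGL1. These values describe likeness of pattern over libraries that share depth and composition differences, and carry no test.

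On the RefSeq map of rabbit assembly mOryCun1.1, P2RX1 overlaps no other gene and lies between CAMKK1, a calcium/calmodulin-dependent kinase kinase, and ATP2A3, a calcium pump of the endoplasmic reticulum. The 4 nearest tested genes on either side were examined after the P2RX1 values had been seen. Their log2 fold changes for acellular against control ran from -1.23 to 0.36, with -0.52 ± 0.35 for CAMKK1 and -0.77 ± 0.53 for ATP2A3. P2RX5 lies on the same chromosome with 5 genes between, and P2RX4 and P2RX7 are direct neighbours.

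P2RX4, an ATP-gated channel known from macrophages, endothelium and epithelium, was at 60.9, 56.5 and 101.8 CPM in acellular libraries, against 37.7, 40.7 and 56.3 CPM in sham libraries. The groups did not overlap, but the lowest acellular and the highest sham value were close together. The log2 fold change was 0.70 ± 0.40 (edgeR, adjusted p = 0.902), and 7.82% of all genes tested were as clearly separated upwards in that comparison. PLATE libraries spanned 46.4 to 87.8 CPM and control libraries 30.5 to 109.4 CPM, a range that took in every value of the other groups. Acellular against control gave 0.33 ± 0.34 and PLATE against acellular -0.20 ± 0.37 (edgeR, adjusted p = 0.919 and 0.951).

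P2RX5, a P2X subunit known from muscle and lymphocytes, was at 1.55 to 4.19 CPM in acellular, 1.78 to 5.69 CPM in PLATE, 1.91 to 3.05 CPM in sham and 2.34 to 5.76 CPM in control libraries. Every pair of groups overlapped. P2RX7, the low-affinity channel through which high ATP activates the inflammasome in immune cells, was at 14.1, 11.2 and 27.4 CPM in acellular 6, 8 and 10. In PLATE 1, 5, 9 and 13 it was at 4.14, 13.3, 16.0 and 16.6 CPM, in sham libraries at 11.0 to 16.8 CPM and in control libraries at 2.34 to 22.3 CPM. The lowest values of P2RX7 were those of control 2 and PLATE 1, and its log2 fold changes lay between -0.49 and 0.61 over the 6 comparisons, none past the edgeR threshold.

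The remaining P2X genes were outside the set and were read as the rest of the family. P2RX2, a channel of sensory and autonomic nerves, averaged 25.4 CPM in acellular, 16.4 CPM in PLATE, 33.3 CPM in sham and 18.1 CPM in control libraries, and had 0 counts in control 2, where 3 counts correspond to 0.27 CPM. P2RX3, a channel of sensory nerves, had 3 to 45 counts per library. P2RX6, a subunit known mostly from mixed channels, was at 2.65 ± 1.99 CPM in acellular (SD, n = 3) against 0.714 ± 0.443 CPM in sham libraries (n = 3), with a log2 fold change of 1.89 ± 1.17 (edgeR, adjusted p = 0.902), and of 1.06 without acellular 10. Of the 7 P2X genes, 4 had a higher and 3 a lower mean in acellular against control, and none passed the test.

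P2RY1, a receptor for ADP, was at 11.3, 7.33 and 5.62 CPM in acellular 6, 8 and 10, and at 2.78, 5.68, 4.34 and 10.3 CPM in PLATE 1, 5, 9 and 13. Sham libraries held 4.69 to 5.97 CPM. Control 16 stood alone at 29.4 CPM (666 counts), against 3.84 to 9.61 CPM in the other 5 controls. That library set the sign of P2RY1 in acellular against control, which was -0.32 ± 0.58 with it and 0.39 without it. PLATE against control was -0.80 ± 0.53 with it and -0.09 without it.

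P2RY6, a receptor for UDP known from macrophages and epithelium, was at 7.12, 2.01, 2.88 and 2.36 CPM in PLATE 1, 5, 9 and 13. In sham 11, 12 and 14 it was at 0.978, 0.431 and 0.70 CPM. Every PLATE library lay above every sham library, and PLATE 1 stood far above the other PLATE libraries. The log2 fold change was 2.34 ± 0.93, with an unadjusted p of 0.0241 and an edgeR adjusted p of 0.657, and 7.91% of all genes tested were separated upwards in the same way. Without PLATE 1 it was 1.77. Acellular libraries held 0.739 to 2.96 CPM and control libraries 0.0900 to 6.24 CPM, so the control range took in all sham and acellular values and all PLATE values but 1.

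Macrophage markers stood higher in PLATE than in sham libraries too. All 12 had a positive log2 fold change, with a median of 1.81, and none passed the edgeR test. Their summed level was 296 to 2607 CPM in PLATE against 205 to 301 CPM in sham libraries, and their part in the P2RY6 difference was not tested. All 9 neutrophil markers tested (median 4.99) and all 7 T cell markers tested (median 2.03) had higher means in PLATE than in sham libraries as well, and their part was not tested. PLATE 1 stood highest for both macrophage and neutrophil markers, at mean log2 levels of 6.84 and 8.39. The other PLATE libraries lay at 4.06 to 5.08 and 3.18 to 4.38, the sham libraries at 3.52 to 4.00 and 0.68 to 3.19.

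P2RY14, a receptor for UDP-glucose and related sugars, was at 16.6, 29.3 and 24.5 CPM in acellular 6, 8 and 10. In PLATE 1, 5, 9 and 13 it was at 14.4, 38.4, 45.0 and 22.1 CPM, and in sham 11, 12 and 14 at 45.0, 36.2 and 50.3 CPM. Control libraries ran from 24.8 CPM in control 9 through a median of 44.6 to 102.3 CPM in control 2. Acellular libraries all lay below sham libraries, and below 5 of the 6 controls. For acellular against sham the log2 fold change was -0.90 ± 0.46 (edgeR, adjusted p = 0.902), in a comparison where 10.5% of all genes tested were separated downwards. For acellular against control it was -1.16 ± 0.42, with an unadjusted p of 0.0143 and an edgeR adjusted p of 0.827. PLATE against control gave -0.81 ± 0.37 (unadjusted p = 0.0462, edgeR adjusted p = 0.998). Without control 2, acellular against control was -0.85 and PLATE against control -0.52. With both control 2 and PLATE 1 left out, PLATE against control was -0.29 ± 0.30.

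With the muscle marker mean as a covariate, the log2 fold change of P2RY14 was -0.48 ± 0.33 in acellular against control and -0.19 ± 0.38 in acellular against sham. The part of muscle content in the P2RY14 levels was not tested.

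Of the other P2Y genes, P2RY10, a lysophospholipid receptor of lymphocytes, averaged 14.1 CPM in PLATE against 1.86 CPM in sham libraries (log2 fold change 2.92 ± 1.06, edgeR adjusted p = 0.657). P2RY13, an ADP receptor of blood cells, averaged 3.02 CPM in PLATE against 0.610 CPM in sham libraries (2.29 ± 0.85, edgeR adjusted p = 0.657). PLATE 1 stood apart in both, with 35.5 CPM of P2RY10 against 5.81 to 8.66 CPM in the other 3 PLATE libraries, and 7.63 CPM of P2RY13 against 1.31 to 1.82 CPM. Without it the PLATE means were 7.002 and 1.48 CPM, and the log2 fold changes against sham 1.91 and 1.27. P2RY8, another lymphocyte receptor, had 1 to 37 counts per library. P2RY4, a UTP receptor, had 3 counts in PLATE 13 and none elsewhere. Of the 6 P2Y genes tested, 3 including P2RY6 were separated upwards in PLATE against sham, beside 7.91% of all genes.

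**Figure D3:**
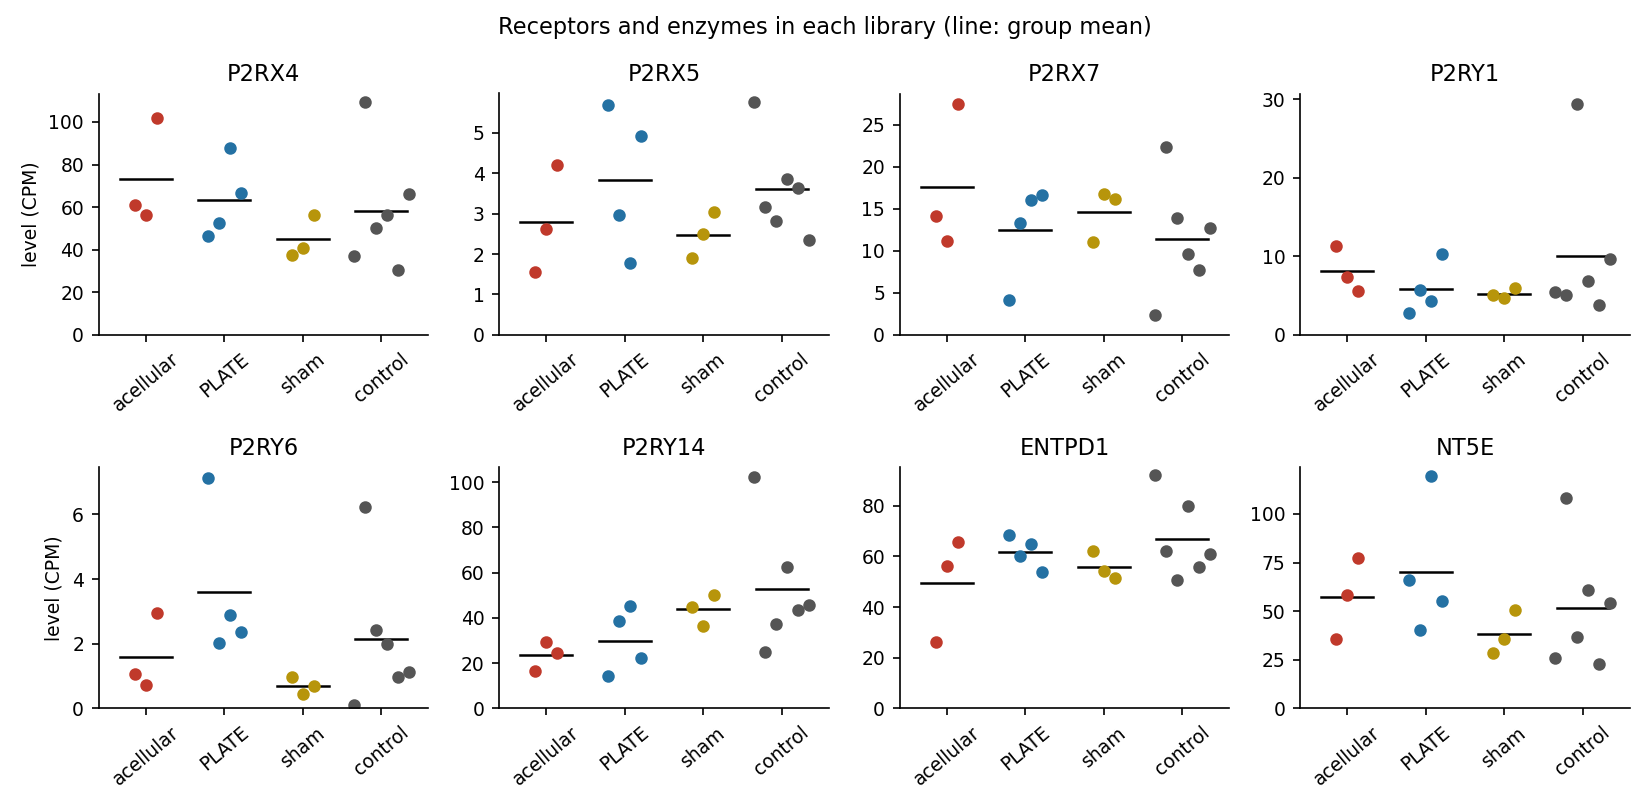
Level (CPM) of the 8 genes other than P2RX1 in each library by group, 1 point per library, with a line at the group mean. Group ranges overlap in nearly all panels; P2RY6 in PLATE (2.01 to 7.12 CPM) lies above sham (0.431 to 0.978 CPM), and P2RY14 in acellular (16.6 to 29.3 CPM) below sham (36.2 to 50.3 CPM).

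ENTPD1, the enzyme that degrades ATP and ADP at the cell surface, was at 26.2, 56.4 and 65.6 CPM in acellular 6, 8 and 10, against 50.8 to 92.0 CPM in control libraries. PLATE libraries held 53.8 to 68.6 CPM and sham libraries 51.4 to 62.03 CPM. The low value was that of acellular 6 alone. The log2 fold change of acellular against control was -0.44 ± 0.25 (edgeR, adjusted p = 0.859), and -0.14 without acellular 6. ENTPD1 had the smallest SE of the 9 genes in all 6 comparisons, 0.22 to 0.28.

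NT5E, which makes adenosine from AMP, was at 35.8, 58.2 and 77.2 CPM in acellular 6, 8 and 10, and at 65.8, 40.3, 119 and 55.1 CPM in PLATE 1, 5, 9 and 13. In sham libraries it was at 28.6, 35.9 and 50.5 CPM, and in control libraries at 22.7 to 108.3 CPM. The control range took in every value of the other groups but that of PLATE 9. The largest difference was that of PLATE against sham, a log2 fold change of 0.87 ± 0.50 (edgeR, adjusted p = 0.677), and it was 0.49 without PLATE 9.

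Among the other ectonucleotidases, ENTPD3, which hydrolyses ATP and ADP, averaged 194 CPM in acellular, 238 CPM in PLATE, 471 CPM in sham and 523 CPM in control libraries. Its log2 fold change was -1.43 ± 0.71 for acellular against control (edgeR, adjusted p = 0.84) and -1.28 ± 0.78 for acellular against sham (edgeR, adjusted p = 0.902). All acellular lay below all sham libraries, in a comparison where 10.5% of all genes tested were separated downwards. Control 2 held 1530 CPM of ENTPD3, against 82.1 to 660 CPM in the other 5 controls. Without it the control mean was 321 CPM and acellular against control -0.71. ACP3, a phosphatase that also acts on AMP, averaged 33.6 CPM in acellular against 12.3 CPM in control libraries (1.44 ± 0.82, edgeR adjusted p = 0.857), and the difference was 0.88 without acellular 10. ENPP2, which makes lysophosphatidic acid, averaged 68.5 CPM in PLATE against 107.06 CPM in acellular libraries with no overlap (-0.64 ± 0.47, edgeR adjusted p = 0.875). In that comparison 1.70% of all genes tested were separated downwards. ENTPD8, ENPP1, ENPP3 and ALPL had log2 fold changes from -1.86 to 1.92 over the 6 comparisons, the ends being those of ENTPD8 in sham against control and in PLATE against sham. None of the 9 ectonucleotidase genes tested passed in any comparison.

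**Figure D4:**
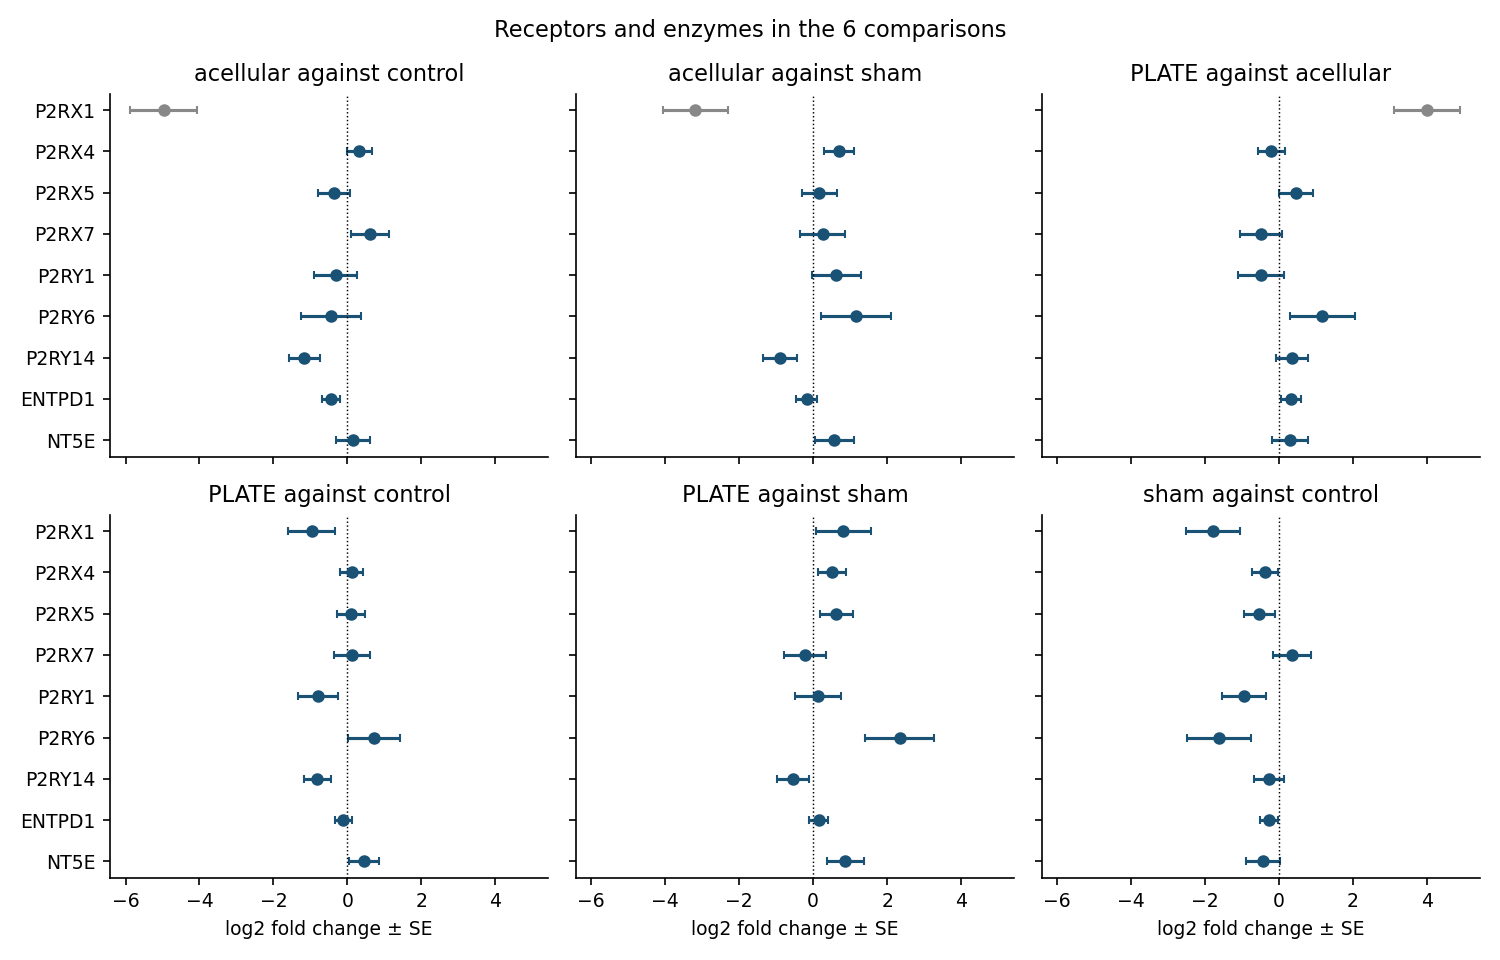
Log2 fold change ± SE of the 9 genes in the 6 comparisons, from the edgeR fit of all 16 libraries; P2RX1 is grey where it was chosen for the difference shown. P2RX1 stands apart at -4.97, -3.18 and 4.00 in the acellular comparisons, while the 8 other genes lie between -1.61 and 2.34.

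Read comparison by comparison, the 8 genes other than P2RX1 gave no call. In acellular against control edgeR called 0 of 8, and 0 of all 10942 genes (0%). Unadjusted p-values under 0.05 were reached by 1 of the 8, P2RY14, beside 656 of all genes (6.00%), and DESeq2 called 10 genes (0.0808%) and 0 of the 8. Lower means were found for 5 of the 8, beside 54.2% of all genes. In that comparison 1.02% of genes were separated downwards, P2RX1 among them by choice, and 0 of the other 8, and none of the 9 was among the 0.704% separated upwards.

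In acellular against sham edgeR called 0 of the 8 and 0 genes in all (0%), with 0 of the 8 and 533 genes (4.87%) at an unadjusted p under 0.05. DESeq2 called 1 gene (0.00808%), which is not in the set. Higher means were found for 6 of the 8, beside 52.2% of all genes, and among the 8 only P2RX4 and P2RY14 had acellular values that did not overlap the sham values, P2RX4 upwards beside 7.82% and P2RY14 downwards beside 10.5% of all genes. In PLATE against acellular edgeR again called 0 of the 8 and 0 genes (0%), with 0 of the 8 and 515 genes (4.71%) at an unadjusted p under 0.05. DESeq2 called 1 gene (0.00808%), none of the 8. Of the 8, 5 had higher means, beside 52.4% of all genes, and 3 lower means, beside 47.6%. P2RX1, by choice, was the 1 gene of the set separated upwards, where 3.27% of all genes were, and none was separated downwards (1.70% of all genes).

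In the 3 comparisons without acellular libraries all 9 genes could be tested. PLATE against control had 0 edgeR calls among the 9 and among all genes (0%), 1 of the 9, P2RY14, and 480 genes (4.39%) at an unadjusted p under 0.05, and 0 calls by DESeq2 (0%). Means were higher for 5 of the 9, beside 47.7% of all genes, and lower for 4, beside 52.3%, and the groups overlapped for all 9, where 0.0274% of genes were separated upwards and 0.0914% downwards. PLATE against sham had 0 edgeR calls (0%), 1 of the 9, P2RY6, and 821 genes (7.50%) at an unadjusted p under 0.05, and 14 calls by DESeq2 (0.113%), none of them in the set. Means were higher for 7 of the 9, beside 52.6% of all genes, and lower for 2, beside 47.4%, with P2RY6 alone separated upwards and none downwards (6.95% of all genes). Sham against control had 0 edgeR calls (0%), 1 of the 9, P2RX1, and 326 genes (2.98%) at an unadjusted p under 0.05, and 0 calls by DESeq2 (0%). In sham against control 8 of the 9 means were lower, beside 57.9% of all genes, and that of P2RX7 was higher, beside 42.1%. The sham and control libraries overlapped for all 9, where 1.90% of genes were separated upwards and 1.79% downwards. The acellular, PLATE and sham comparisons with control share the same 6 control libraries, so their values are not independent of one another.

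The 8 other genes were then compared with cell type markers across the 16 libraries, as 88 of 99 correlations between the 9 genes and the mean log2 levels of 11 marker lists. Of the 88, 14 passed an adjusted p of 0.05 for Pearson's r and 10 for both r and Spearman's rho, with permutation p-values adjusted over all 99. P2RX4 was lower where muscle markers were higher (r = -0.75, permutation p = 0.00095, adjusted 0.0134; rho = -0.76, permutation p = 0.00093, adjusted 0.0134). Without control 9 and control 2 that r was -0.62. P2RY14 went the opposite way (r = 0.78, permutation p = 0.00042, adjusted 0.00825; rho = 0.74, permutation p = 0.00157, adjusted 0.0194), and r was 0.70 without the same libraries. P2RX4 was also lower where the thinly measured skeletal muscle markers were higher (r = -0.78, permutation p = 0.00048, adjusted 0.00825; rho = -0.79, permutation p = 0.00047, adjusted 0.0134), and P2RY14 where T cell markers were (r = -0.76, permutation p = 0.0005, adjusted 0.00825; rho = -0.65, permutation p = 0.00738, adjusted 0.0457). Without control 25 and acellular 8 the first r was -0.83, and without PLATE 1 and control 2 the second was -0.51. The mast cell list, 3 of 10 tested, gave r = -0.69 with P2RY14 (permutation p = 0.00315, adjusted 0.0347, and rho = -0.68, adjusted 0.0364). With P2RY6 it gave r = 0.69 (permutation p = 0.00461, adjusted 0.038, and rho = 0.69, adjusted 0.0346). Without PLATE 1 and control 2 these r values were -0.36 and 0.40. In the mast cell list CPA3 had 0 counts in every library, CMA1 0 to 14 and HPGDS 0 to 5.

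P2RX7 followed the epithelial markers (r = 0.83, permutation p = 0.00038, adjusted 0.00825; rho = 0.63, permutation p = 0.0104, adjusted 0.0599). Control 2, with hardly any epithelial transcripts, had the least P2RX7, and without it and control 24 r was 0.64. P2RY6 followed the T cell markers (r = 0.79, permutation p = 0.00032, adjusted 0.00825; rho = 0.73, permutation p = 0.00225, adjusted 0.0247), with r = 0.56 when PLATE 1 and control 2 were left out. NT5E followed the macrophage markers (r = 0.69, permutation p = 0.00297, adjusted 0.0347; rho = 0.81, permutation p = 0.00022, adjusted 0.0134), with r = 0.83 without PLATE 1 and control 24. It was lower where the thinly measured skeletal muscle markers were higher (r = -0.79, permutation p = 0.00028, adjusted 0.00825; rho = -0.76, permutation p = 0.00095, adjusted 0.0134), with r = -0.81 without control 25 and acellular 8. NT5E also followed the endothelial markers (r = 0.65, permutation p = 0.00448, adjusted 0.038; rho = 0.66, permutation p = 0.00621, adjusted 0.041), with r = 0.56 without control 25 and acellular 6. Within the 6 control libraries alone r was -0.91 for P2RX4 and 0.82 for P2RY14 with smooth muscle markers, 0.94 for P2RX7 with epithelial, 0.90 for P2RY6 with T cell and 0.80 for NT5E with macrophage markers. These r values carry no test, and control 2 weighs heavily in some. Its epithelial mean was 0.10, against 3.91 to 5.76 in the other controls, and its T cell mean -0.58, against 0.67 to 3.18. Besides P2RX7 with epithelial markers, those that passed for r but not for rho were P2RX5 with platelet (r = 0.65) and neutrophil markers (0.64), and NT5E with smooth muscle markers (-0.68). All are relations of mixed tissue, and the cells that express the genes were not identified.

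**Figure D5:**
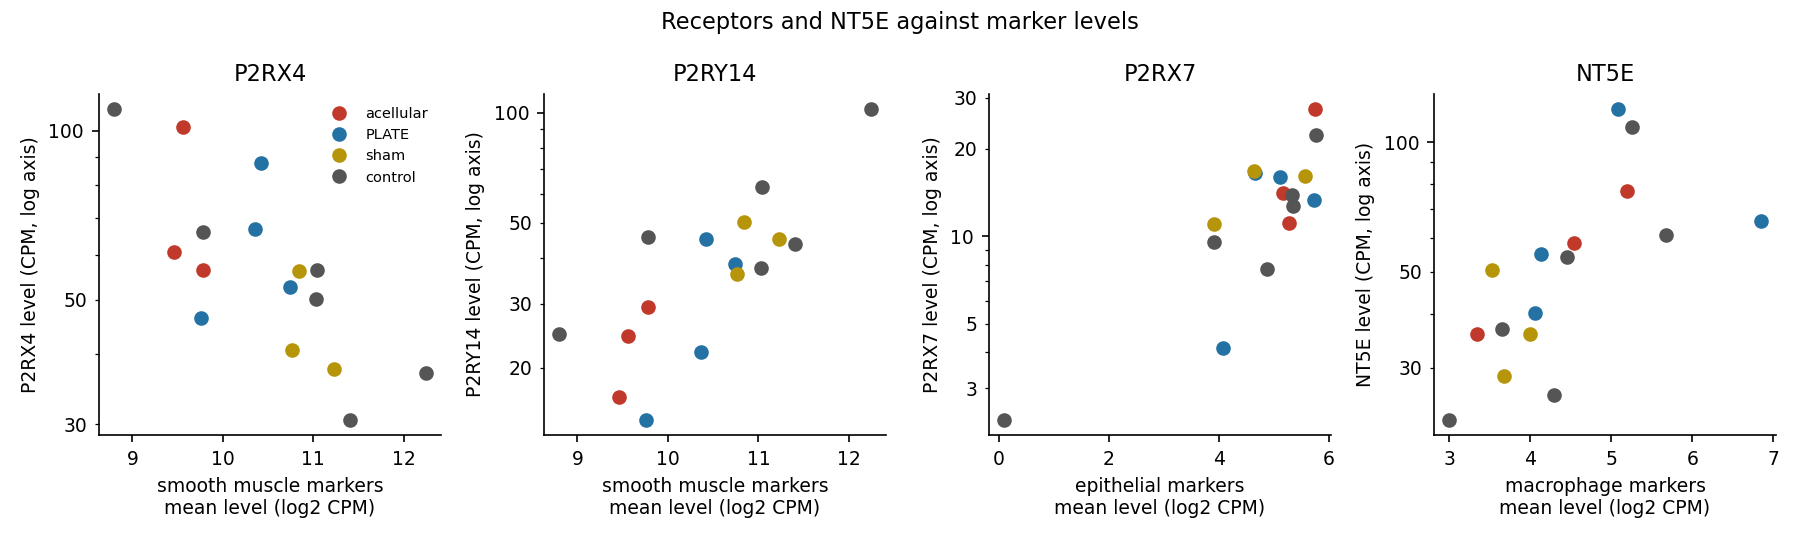
Level (CPM, log axis) of P2RX4 and P2RY14 against the mean of the smooth muscle markers, of P2RX7 against the epithelial and of NT5E against the macrophage markers (mean log2 CPM), 1 point per library coloured by group. P2RX4 declines and P2RY14 climbs along the muscle axis; control 2 lies alone at the low end of the epithelial axis, at 0.10.

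Among the 9 genes themselves the closest pair over the 16 libraries was P2RX4 and NT5E, with a Pearson correlation of log2 levels of 0.88. P2RX4 and P2RX7 gave 0.66, P2RX1 and ENTPD1 0.63, and P2RY6 and P2RY14 -0.63. Over the 13 libraries without acellular grafts, by which P2RX1 was chosen, P2RX1 and ENTPD1 gave 0.44. These are descriptions, since the pairs share the libraries' differences in tissue make-up.

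Adenosine receptors, on which the product of NT5E acts, were all measured, and all 4 had higher means in acellular against control (median log2 fold change 1.11, beside 45.8% of all genes with higher means). ADORA2A, which raises cyclic AMP, averaged 2.49 CPM in acellular and 2.98 CPM in PLATE libraries, against 0.996 CPM in control libraries. The log2 fold change was 1.30 ± 0.62 for acellular (edgeR, adjusted p = 0.827), or 0.68 without acellular 10, and 1.55 ± 0.58 for PLATE (edgeR, adjusted p = 0.998). ADORA3, which lowers cyclic AMP, averaged 4.55 CPM in acellular and 4.77 CPM in PLATE libraries, against 1.46 CPM in sham libraries, which lay below every library of either graft group. Its log2 fold change was 1.64 ± 0.71 for acellular (edgeR, adjusted p = 0.902) and 1.70 ± 0.68 for PLATE (edgeR, adjusted p = 0.657). In these comparisons with sham libraries 7.82% and 7.91% of all genes tested were separated upwards. ADORA1, which lowers cyclic AMP, and ADORA2B, a low-affinity receptor that raises it, had log2 fold changes of 1.24 ± 0.85 and 0.22 ± 0.74 in acellular against control. All 4 were also higher by mean in acellular against sham (median 1.22), PLATE against control (0.98) and PLATE against sham (1.34), and 3 of the 4 were lower in sham against control. None of these differences passed the test. T cell markers, 7 of 12 tested, had higher means in the same comparisons, all 7 in acellular against control (median 0.84) and all 7 in PLATE against control (median 1.47), and their part in the adenosine receptor levels was not tested.

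Genes of adenosine removal and transport, 8 of 13 tested, all had higher means in PLATE against acellular (median 0.66, beside 52.4% of all genes), with 0 called. PNP, which breaks down inosine, averaged 326 CPM in PLATE against 154 CPM in acellular libraries (1.08 ± 0.65, edgeR adjusted p = 0.875), and the difference was 0.56 without PLATE 1 and 1.99 without acellular 10. ADA, which deaminates adenosine, averaged 14.5 CPM in PLATE against 7.97 CPM in acellular libraries (0.86 ± 0.45, edgeR adjusted p = 0.875), and the difference was 0.22 without PLATE 1. Higher means in PLATE than in acellular libraries were also found for all 12 macrophage markers (median 1.01), 8 of 9 neutrophil markers (median 2.98) and 10 of 11 fibroblast markers (median 0.32), and their part in these differences was not tested. The macrophage mean log2 level was 6.84 in PLATE 1, 4.06 to 5.08 in the other PLATE and 3.35 to 5.20 in acellular libraries. For neutrophil markers it was 8.39 in PLATE 1, 3.18 to 4.38 in the other PLATE and 1.14 to 5.00 in acellular libraries. Without PLATE 1 the PLATE values of both lists thus lay within the acellular range.

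Of the ATP release genes, 7 of 10 tested, SLC17A9, the vesicular nucleotide transporter, was named after its values had been seen. It had 3, 0 and 5 counts in acellular, 171, 27, 12 and 23 in PLATE, 26, 13 and 3 in sham, and 4 to 86 in control libraries. Like P2RX1 it was lower in all acellular than in all PLATE libraries, but its acellular counts overlapped those of sham and control libraries. PLATE against acellular gave a fitted log2 fold change of 4.64 ± 1.34 (edgeR, adjusted p = 0.875), which rests on very few acellular counts. In that comparison 3.27% of all genes tested were separated upwards. PANX1, a channel for ATP, averaged 19.4 CPM in acellular against 19.9 CPM in control libraries (-0.04 ± 0.21).

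Genes of smooth muscle calcium handling, through which P2RX1 current is coupled to contraction, had lower means for 14 of 18 in acellular against control (median -0.37, beside 54.2% of all genes) and for 15 of 18 in acellular against sham (median -0.72, beside 47.8%), with 0 called. Lower means were also found for 15 of 18 in PLATE against control (median -0.32, beside 52.3%). In PLATE against sham 14 of 18 were lower (median -0.65, beside 47.4%), again with 0 called. CACNA1C, the L-type calcium channel, averaged 63.6 CPM in acellular against 167 CPM in sham libraries without overlap (-1.40 ± 0.54, edgeR adjusted p = 0.902). In that comparison 10.5% of all genes tested were separated downwards. The PLATE libraries, at 34.8 to 119.9 CPM of CACNA1C, also lay below all sham libraries, at 126.8 to 205.7 CPM. There 6.95% of all genes were separated downwards. Receptors for other transmitters and hormones of smooth muscle were lower by mean for 12 of 19 in acellular against control (median -0.14), with 0 called. Of these 19, 12 were lower in acellular against sham (median -0.10), 13 in PLATE against control (-0.43) and 17 in PLATE against sham (-0.34). ADRA1A, the receptor for the noradrenaline that is released together with ATP, was at 15.7, 14.9 and 13.4 CPM in acellular libraries, against 30.9 to 56.6 CPM in sham and 9.40 to 62.6 CPM in control libraries. Its log2 fold changes were -1.51 ± 0.60 against sham (edgeR, adjusted p = 0.902) and -1.35 ± 0.54 against control (edgeR, adjusted p = 0.827). CACNA1C, PNP, ADA, PANX1 and ADRA1A were named after their values had been seen. All of these lists stood beside muscle markers that were lower in both graft groups than in sham and control libraries. The part of muscle content in these lists was not tested.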

How the data were processed

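Poly(A) RNA of 16 vaginal samples was sequenced from stranded libraries. Per the submitters' processing notes, reads were checked with FastQC, aligned with HISAT2 2.2.1 and assigned with featureCounts. Genome build, annotation and strand setting are not given in the sources used here. The authors deposited raw counts per gene symbol. Each column was assigned to its sample through the index that ends its name. A line that pools reads without a symbol (22.9 to 28.5% of a library's counts) was left out.

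Scaling was by trimmed mean of M values (TMM) and low counts were removed with filterByExpr. Tests used edgeR 4.0.16 (quasi-likelihood F) under R 4.3.3 on the 16 libraries together, with 1 mean for each group and 12 residual degrees of freedom. The tests were adjusted by Benjamini-Hochberg over the 10942 genes tested, with a threshold of 0.05. Log2 levels used a prior count of 2. The script was tested on simulated data. Replicates are separate animals, and the smallest chi-square per degree of freedom between libraries of a group was 42.3, so no library was treated as a copy of another. The common biological coefficient of variation was 0.44.

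The rule named all set members, the genes of the family and enzyme lists, and the 10 genes most like P2RX1. Members, lists and markers were chosen with earlier results of these data known. Each marker list's level is its mean log2 level over the genes tested. Permutation p-values used 100000 permutations. Alternatives were DESeq2 1.42.0 (its size factors, its test), voom of limma 3.58.1 with quality weights, other library sizes, no low-count filter, fits of the compared groups alone, a smooth muscle covariate, and libraries left out, which for the pathway genes outside the set was added after seeing the data. Gene order came from RefSeq's table for mOryCun1.1.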

Additional observations from a re-analysis of the deposited data

Results flagged for a closer look

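Within groups of 4 or more libraries, 18 sets of values of the 9 genes were searched for a library far from the rest, and 2 libraries stood out. Chance alone marks about 1 in 20 such sets if their values are normally spread, which levels in CPM need not be. P2RY1, the ADP receptor, was at 29.4 CPM in control 16 (666 counts), against 3.84 to 9.61 CPM in the other 5 controls. The gap to the nearest control was 0.774 of the whole range. P2RY6, the UDP receptor, was at 7.115 CPM in PLATE 1 (110 counts), against 2.01 to 2.88 CPM in the other 3 PLATE libraries, a gap of 0.83 of the range. PLATE 1 also had the highest macrophage marker sum of all 16 libraries, 2607 CPM. What set these 2 values apart was not tested.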

How the results depend on the processing

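The 54 fold changes of the 9 genes were recomputed under 24 alternatives, 16 of which left out a library, and 34 of 1296 values had the other sign, 3 of them where the reported difference exceeded its SE. The 8 genes other than P2RX1 were called under none of them. The number of genes called, 0 in edgeR, was 10 with DESeq2 in acellular against control, 1 in acellular against sham, 1 in PLATE against acellular and 14 in PLATE against sham, and 72 with voom in acellular against sham. Genes of the set called were 1 with DESeq2 in acellular against control and 1 in PLATE against acellular, P2RX1 each time, and both rest on the acellular values by which it was chosen and are no test of it. The cause was not tested. With the smooth muscle covariate P2RX1 was at -3.87 in acellular against control and -2.10 in acellular against sham. Leaving out 1 library moved P2RX1 between -6.10 and -4.52 in acellular against control, -4.32 and -2.66 in acellular against sham, 3.55 and 5.13 in PLATE against acellular, -1.21 and -0.69 in PLATE against control, 0.57 and 1.32 in PLATE against sham, and -2.28 and -1.54 in sham against control. P2RY6 in PLATE against control was -0.08 without control 2 and PLATE 1, against 0.72 with them. No paired analysis was possible because the groups share only the number 9. Depth limits P2RX1 beside acellular grafts, at 4 to 26 counts.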
